A study of Homo sapiens with 2 samples.

Results

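Chromatin remodelling complexes use an ATPase of the SNF2 family to slide, evict or exchange nucleosomes, and most of them carry many further subunits. The genes described here are their ATPases and subunits, taken by symbol: the SMARCA to SMARCE, ARID1 to ARID5, CHD, ACTL6 and INO80 genes together with HELLS, PBRM1, BRD7, BRD9, DPF1, DPF2, DPF3, SS18, EP400, SRCAP, RUVBL1 and RUVBL2, without SMARCAL1. The rule found 51 genes among 18083 symbols with a single value per library, and no gene was lost for having several rows. Of these, 50 were protein-coding in GENCODE release 29 and 1, SMARCA5-AS1, was an antisense RNA. Not every gene is a subunit of a remodelling complex: the 7 genes ARID3A, ARID3B, ARID3C, ARID4A, ARID4B, ARID5A and ARID5B share the AT-rich interaction domain but are not established remodeller subunits, and ARID4A and ARID4B are known from SIN3 complexes.

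RNA was measured in 2 libraries of 1 group, the human osteosarcoma line U2OS, grown asynchronously and treated with 0.3 µM aphidicolin for 18 h. This drug blocks the DNA polymerases of replication and so slows the forks. No untreated library was analysed here, so the values are levels in treated cells and no effect of the drug was tested. Whether the replicates were separate cultures is not in the labels, and their spread may be only technical.

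The SWI/SNF complexes come in a canonical form called BAF, a form called PBAF that carries ARID2 and PBRM1, and a non-canonical form that carries BRD9. They are built on SMARCC and SMARCD scaffolds around the ATPase SMARCA4 or SMARCA2. The ISWI ATPases space nucleosomes, the CHD ATPases include those of the NuRD deacetylase complex, and the INO80, SRCAP and EP400 complexes handle the histone variant H2A.Z and share the ring-forming helicases RUVBL1 and RUVBL2. Several positions can be filled by either of a pair of paralogues, so the balance between paralogues is one of the ways in which cell types differ.

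Levels are RPKM, reads scaled by kilobases of exon and by library total. Replicate 1 held 13227805 reads and replicate 2 held 13020149. Where a gene has a pair of values, the first is of replicate 1 and the other of replicate 2. A gene counts as expressed at 1 RPKM or more in both libraries. Of 7 listed markers of mesenchyme and osteoblasts 5 were expressed, COL1A1 averaging 209 RPKM, VIM 249 and SPARC 280, while COL1A2 averaged 0.0515 and BGLAP 0.277. No muscle marker of 4 and 1 haematopoietic marker of 4 was expressed. Of 12 neuronal markers, 7 were expressed, led by NEFL at 16.1 RPKM, while STMN2 and ELAVL3 were at 0.0485 and 0.0241.

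Of the 51 genes, 45 (88.2%) were expressed, against 66.7% of the 17912 entries of the table. No value of 0 is listed for either library, so genes without reads in a library are in neither share. Among protein-coding genes the shares were 88.0% of 50 remodelling genes and 72.8% of all 15381. The median of the 51 genes was 7.06 RPKM, with 7.12 in replicate 1 and 6.84 in replicate 2, against 3.53 RPKM over all entries and 4.81 over the protein-coding ones. The levels ran from 0.0321 RPKM for ACTL6B to 35.0 for RUVBL2, and 38 of the 51 genes lay above the median of all entries. Together they took 0.444% of the reads of replicate 1 and 0.450% of those of replicate 2. These are descriptions of 1 condition, and genes are not replicates of it. In the plot of every gene by library, most genes lay between 3 and 30 RPKM and the libraries nearly coincided.

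**Figure D1:**
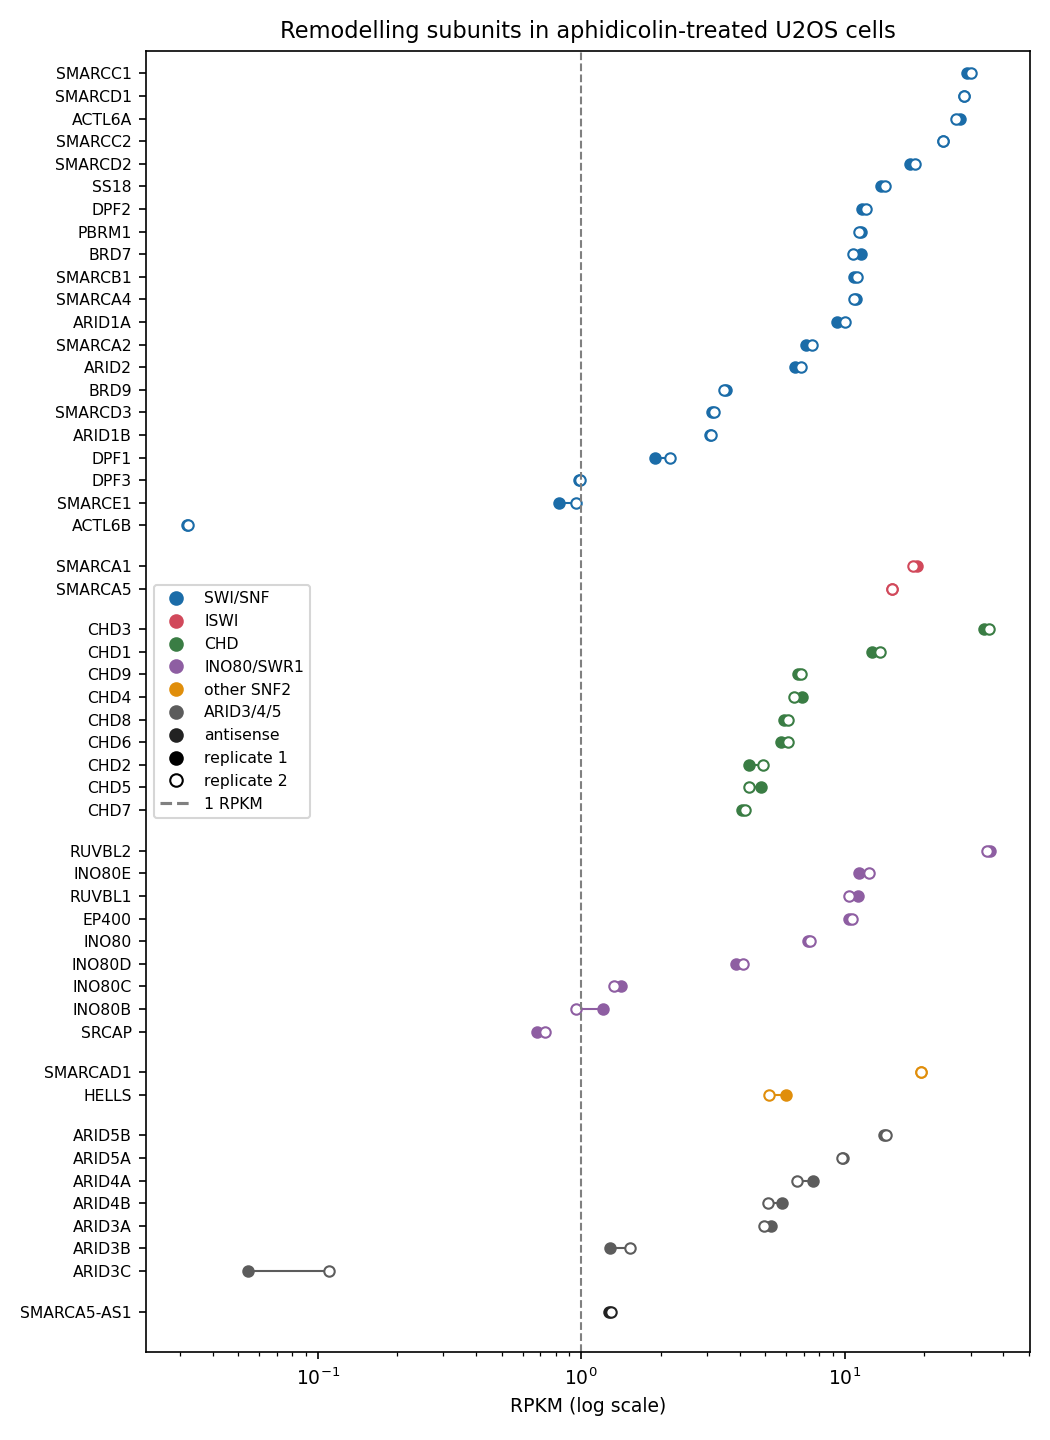
RPKM of the 51 genes in both libraries on a log scale, grouped by family, with filled circles for replicate 1 and open circles for replicate 2; the dashed line is 1 RPKM. RUVBL2 and CHD3 stand at the upper end near 35 RPKM, and ACTL6B and ARID3C, with 1 or 2 reads per library, at the lower end.

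The genes of the SWI/SNF complexes had a median of 10.96 RPKM, and 18 of 21 were expressed. The scaffold genes SMARCC1 and SMARCD1 and the actin-related gene ACTL6A were highest by RPKM. SMARCC1, one of the paired scaffold subunits, had 29.1 and 30.1 RPKM, and its paralogue SMARCC2 had 23.6 and 23.6. SMARCD1, of the subunits that link the scaffold to transcription factors, had 28.4 and 28.3 RPKM, against 17.7 and 18.4 for SMARCD2 and 3.14 and 3.18 for SMARCD3. No library's value for SMARCD2 reached any of SMARCD1, and SMARCD3 was 8.98-fold below SMARCD1 by RPKM and 4.67-fold below it per kilobase of principal transcript.

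By RPKM the ATPase genes lay below SMARCC1, SMARCC2, SMARCD1 and SMARCD2, while per principal transcript SMARCA4 at 29.9 lay above SMARCD2 at 24.3. SMARCA4, on chromosome 19 (chr19:10960825-11079426, GRCh38), had 11.1 and 10.9 RPKM, and SMARCA2, on chromosome 9 (chr9:1980290-2193624), had 7.12 and 7.54. SMARCA4 was thus higher by 0.58 ± 0.08 on the log2 scale (SD, n = 2), and the libraries did not overlap. The core subunit SMARCB1, whose loss defines rhabdoid tumours, had 10.9 and 11.1 RPKM. SMARCE1, the HMG-box core subunit, had 0.823 and 0.956 RPKM from 201 and 230 reads, below the level for expression. With all its reads divided by the length of its principal transcript, it had 2.45 and 2.85 per kilobase.

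Among the subunits that tell the SWI/SNF forms apart, ARID1A of BAF had 9.38 and 9.98 RPKM and ARID1B, its alternative, 3.08 and 3.11. ARID2, the PBAF counterpart, had 6.49 and 6.83 RPKM. PBRM1, the PBAF subunit with many bromodomains, had 11.6 and 11.4, and BRD7, also of PBAF, 11.6 and 10.7. BRD9, which marks the non-canonical form, had 3.54 and 3.48 RPKM. SS18, the subunit fused in synovial sarcoma, had 13.7 and 14.2. Subunits of all the SWI/SNF forms were therefore present as RNA, with BRD9 and ARID1B below the others per kilobase of annotated exon.

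ACTL6A and the DPF genes include forms known from neurons. ACTL6A, the actin-related subunit of dividing cells, had 27.3 and 26.4 RPKM. ACTL6B, its neuronal counterpart, had 1 read in each library, or 0.0318 and 0.0323 RPKM. Over both libraries ACTL6A held 2582 reads and ACTL6B 2, a ratio per length of 836 with a 95% interval of 231 to 6909 that covers counting error only. Among the DPF genes, whose products read acylated histone tails, DPF2 had 11.6 and 12.0 RPKM, DPF1 1.91 and 2.18, and DPF3 0.977 and 0.992. DPF2, the form found in most tissues, was highest in both libraries. DPF1 had 121 and 136 reads, and DPF3 89 and 89. The 12 neuronal markers summed to 33.0 RPKM in replicate 1 and 31.9 in replicate 2, of which NEFL alone held 16.5 and 15.7. The median of the 12 markers was 1.33 RPKM, and their part in these levels was not tested.

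The stretches before the start of these genes are shown for the DPF2 and DPF1 pair, for ACTL6B as the gene with the fewest reads, and for CHD1 as an ATPase gene whose window lies wholly before the GENCODE start. They are RefSeq sequences of GRCh38.p14, chosen after the levels were seen, written 5′ to 3′ on the strand of the gene and ended before both the RefSeq and the GENCODE start. Capitals mark CpG dinucleotides. The DPF2 stretch (chr11:65333602-65333753, plus strand) has 15 CpG in 152 bases, and the DPF1 stretch (chr19:38229715-38229945, minus strand) has 27 in 231. The CHD1 stretch (chr5:98929008-98929257, minus strand) has 36 in 250, and the ACTL6B stretch (chr7:100656462-100656698, minus strand) has 15 in 237.
DPF2: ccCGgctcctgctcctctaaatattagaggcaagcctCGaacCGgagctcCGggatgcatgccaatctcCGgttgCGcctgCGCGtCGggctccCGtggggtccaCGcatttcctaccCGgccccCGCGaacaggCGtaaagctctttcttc
DPF1: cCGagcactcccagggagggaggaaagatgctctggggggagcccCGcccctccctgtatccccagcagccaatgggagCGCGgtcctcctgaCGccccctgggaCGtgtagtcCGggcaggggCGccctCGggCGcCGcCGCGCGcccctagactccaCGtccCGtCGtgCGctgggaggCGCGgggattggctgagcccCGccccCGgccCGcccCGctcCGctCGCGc
CHD1: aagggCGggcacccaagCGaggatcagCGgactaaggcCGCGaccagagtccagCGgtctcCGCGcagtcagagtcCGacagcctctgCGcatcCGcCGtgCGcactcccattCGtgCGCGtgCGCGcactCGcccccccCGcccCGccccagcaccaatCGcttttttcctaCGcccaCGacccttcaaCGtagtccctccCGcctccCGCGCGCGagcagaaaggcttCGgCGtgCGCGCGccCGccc
ACTL6B: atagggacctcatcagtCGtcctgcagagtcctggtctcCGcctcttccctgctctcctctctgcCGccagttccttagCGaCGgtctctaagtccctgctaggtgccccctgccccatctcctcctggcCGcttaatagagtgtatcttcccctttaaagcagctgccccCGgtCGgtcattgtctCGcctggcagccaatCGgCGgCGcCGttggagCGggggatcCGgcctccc

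Per 100 bases these stretches hold 14.4 CpG for CHD1, 11.7 for DPF1, 9.87 for DPF2 and 6.33 for ACTL6B. A link of CpG to level was not tested. The RefSeq table of promoters (250 bases before to 50 after a start) matched 26 of the 51 genes. Their median GC content was 65.7%, against 65.0% over 8644 protein-coding genes, and their median CpG count 27, against 26. The GC box GGGCGG, searched on both strands, was in 19 of 26 windows (73.1%), against 68.6% of all windows, and CCAAT in 9 (34.6%), against 37.0%. TATAAA was in 0 of 26 windows and in 6.61% of all. For 11 of the 26 genes the 250 bases before the RefSeq start lie inside the GENCODE gene, so those windows describe a start within the gene.

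The ISWI ATPases were both expressed. SMARCA1, the form best known from neurons, had 18.8 and 18.2 RPKM, and SMARCA5, known as SNF2H and found in most cells, had 15.2 and 15.1. SMARCA1 was higher in both libraries by 0.29 ± 0.03 on the log2 scale (SD, n = 2). By reads alone the order was the other way, with 1634 and 1602 reads for SMARCA5 and 1087 and 1035 for SMARCA1. SMARCA5-AS1, which lies on the opposite strand over the start of SMARCA5, had 16 reads in each library and 1.28 and 1.30 RPKM. Its exons overlap those of SMARCA5 over 66.7% of their bases, and since the use of strand is not given, reads of the pair cannot be told apart there.

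All 9 CHD genes were expressed, with a median of 5.98 RPKM. CHD3, an ATPase of NuRD on chromosome 17 (chr17:7884806-7912760), was highest at 33.7 and 35.3 RPKM from 4612 and 4746 reads. CHD4, the NuRD ATPase of most dividing cells, had 6.90 and 6.40 RPKM, and CHD5, known from neurons and testis, 4.81 and 4.31. CHD3 was 5.19-fold above CHD4, or 2.38 ± 0.12 on the log2 scale (SD, n = 2). Of the principal transcript of CHD4, 88.8% lies in same-strand exons of another annotated gene, AC006064.6, which is not listed in the table. The part of this overlap in the CHD4 level was not tested.

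CHD1, which binds methylated histone H3 at active genes, had 12.7 and 13.6 RPKM, and its relative CHD2 had 4.35 and 4.91. In the group of CHD6 to CHD9 the levels were closer. CHD9 had 6.67 and 6.84 RPKM, CHD8, a regulator of Wnt target genes, 5.87 and 6.08, CHD6 5.73 and 6.11, and CHD7, the gene mutated in CHARGE syndrome, 4.09 and 4.17. CHD8 and CHD6 overlapped between libraries, whereas CHD7 lay below the others in both.

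In the INO80 and SWR1 group 7 of 9 genes were expressed and the median was 7.33 RPKM. RUVBL2 (chr19:48993448-49015995) had 35.4 and 34.6 RPKM, the highest of all 51 genes, and RUVBL1, its partner in the same hexameric ring, 11.2 and 10.4. The ATPase INO80 had 7.28 and 7.39 RPKM and the ATPase EP400 of the TIP60 acetyltransferase complex 10.4 and 10.7. The accessory subunit INO80E had 11.3 and 12.3 RPKM, INO80D 3.86 and 4.11, INO80C 1.41 and 1.33, and INO80B 1.21 and 0.959 from 23 and 18 reads. SRCAP, the ATPase that deposits H2A.Z, had 0.682 and 0.726 RPKM from 123 and 129 reads. SRCAP and INO80B were the members of this group below the level, INO80B in replicate 2 alone.

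The remaining SNF2 ATPases were SMARCAD1, which acts at replicated chromatin and in end resection, and HELLS, which is needed for DNA methylation. SMARCAD1 had 19.4 and 19.5 RPKM and HELLS 5.99 and 5.17. Among the genes with an AT-rich interaction domain outside SWI/SNF, ARID5B had 14.1 and 14.3 RPKM and ARID5A 9.85 and 9.75. ARID4A had 7.55 and 6.58, ARID4B 5.77 and 5.13, ARID3A 5.27 and 4.95, and ARID3B 1.29 and 1.53. ARID3C had 1 and 2 reads, and ARID3A stood 62.1-fold above it per length over both libraries, with a 95% counting interval of 21.2 to 302.

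Ranked by RPKM, the 18 ATPase genes spanned 49.0-fold. CHD3 came first, then SMARCAD1, SMARCA1, SMARCA5, CHD1, SMARCA4 and EP400, with no overlap between neighbours. INO80 and SMARCA2 overlapped, as did CHD9 and CHD4, CHD8 and CHD6, CHD6 and HELLS, and CHD2 and CHD5. CHD7 at 4.13 RPKM and SRCAP at 0.704 came last. In all, 5 of 17 neighbouring pairs overlapped between libraries.

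RPKM divides by all annotated exons of a gene, and these genes differ in how much annotated exon lies outside their main transcript. The reads were therefore also divided by the length of the principal coding transcript, an alternative added after the data were seen. All reads of a gene were kept, also those from exons outside that transcript, so the values can overstate its level. The exonic length was 1.61 times the principal transcript at the median of 50 remodelling genes, against 1.37 over protein-coding entries, and 16 genes (32.0%) reached 2 or more, against 21.5%. ARID1B stood out, with 44677 bases of exon and a principal transcript of 7962. Per kilobase of principal transcript CHD3 stayed first at 48.5 (same scaling by library total), and SMARCA4 at 29.9 moved ahead of SMARCAD1 at 24.97, SMARCA2 at 23.2 and SMARCA1 at 19.7. SRCAP stayed last at 0.817, and 7 of 17 neighbours overlapped.

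**Figure D2:**
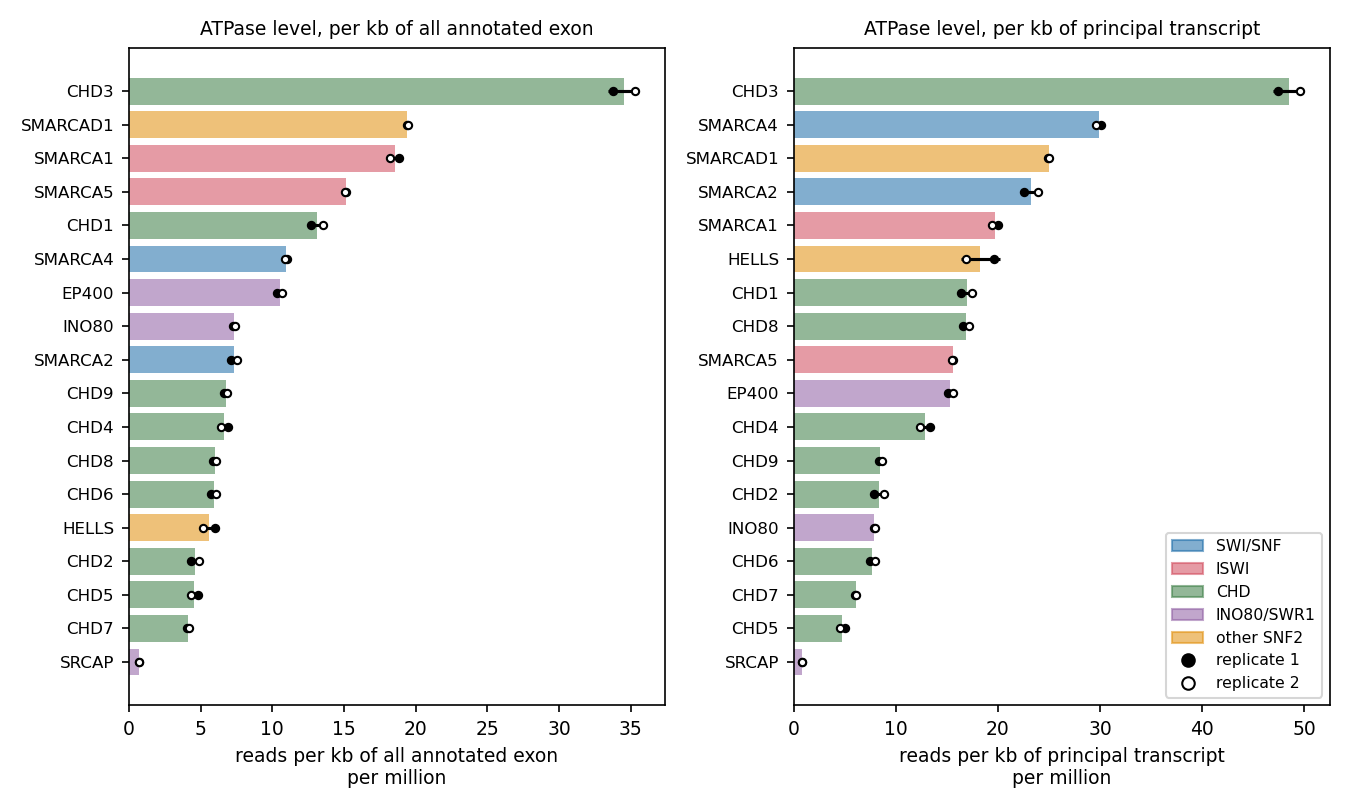
Levels of the 18 ATPase genes per kilobase of all annotated exon (left) and of principal transcript (right), scaled by library total; bars are means of 2 libraries, circles the libraries, and lines the SD. CHD3 is first and SRCAP last on both scales, while SMARCA4 and SMARCA2 stand higher on the right.

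Of 15 paralogue groups, 8 had a highest gene at least 2-fold above the next in both libraries. Besides ACTL6A over ACTL6B, the log2 ratios were 2.54 ± 0.10 for DPF2 over DPF1, 2.38 ± 0.12 for CHD3 over CHD4, 1.86 ± 0.24 for ARID3A over ARID3B and 1.70 ± 0.05 for RUVBL2 over RUVBL1 (SD, n = 2). They were 1.67 ± 0.06 for BRD7 over BRD9, 1.64 ± 0.05 for ARID1A over ARID1B and 1.51 ± 0.06 for CHD1 over CHD2. Smaller ratios were 0.65 ± 0.05 for SMARCD1 over SMARCD2, 0.54 ± 0.02 for ARID5B over ARID5A, 0.37 ± 0.02 for ARID4A over ARID4B, 0.33 ± 0.03 for SMARCC1 over SMARCC2 and 0.18 ± 0.01 for CHD9 over CHD8.

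With the principal transcript as the length, 4 groups reached 2-fold in both libraries, those led by ACTL6A, DPF2, CHD3 and ARID3A. ARID1A over ARID1B came to 0.05, BRD7 over BRD9 to 0.18, RUVBL2 over RUVBL1 to 0.52 and CHD1 over CHD2 to 1.02 on the log2 scale. CHD3 over CHD4 stayed at 1.92 and DPF2 over DPF1 at 2.60. SMARCC1 over SMARCC2 turned to -0.58, CHD9 over CHD8 to -0.99 and ARID4A over ARID4B to -0.19, each with the same sign in both libraries. ARID5B over ARID5A came to -0.014 ± 0.024 (SD, n = 2), with the libraries on opposite sides of 0. The balance of ARID1A with ARID1B and of BRD7 with BRD9 thus depends on which exons are counted as the gene, and the files do not say which transcripts the reads came from.

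**Figure D3:**
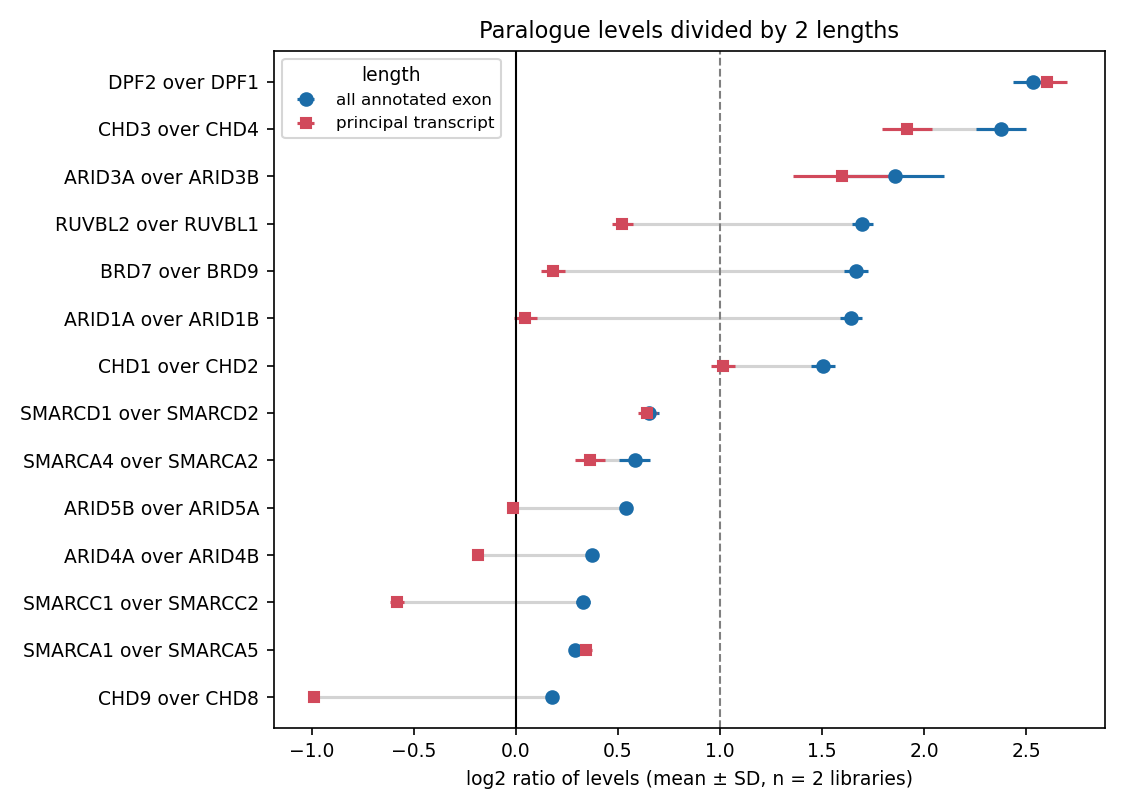
Log2 ratio of the highest over the next paralogue by RPKM (circles) and per principal transcript (squares), mean ± SD of 2 libraries; the dashed line is 2-fold, and the ACTL6A and ARID3C ratios, which rest on few reads, are not drawn. DPF2 over DPF1 and CHD3 over CHD4 stay above 2-fold on both, and ARID1A over ARID1B falls to 0.05.

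The 6 genes below 1 RPKM in a library were ACTL6B, ARID3C, SRCAP, SMARCE1, DPF3 and INO80B. With all reads divided by the principal transcript length, DPF3 had 5.91 and 6.01 per kilobase, SMARCE1 2.45 and 2.85, and INO80B 1.38 and 1.10. For DPF3 and SMARCE1 the reads came from 6889 and 18470 bases of exon but were divided by 1138 and 6196. Their values can therefore overstate these transcripts. On that scale ACTL6B, ARID3C and SRCAP stayed below 1 in both libraries. Of the 6 genes, 3 shared most of their principal transcript with another gene. The share in same-strand exons of another gene was 86.9% for INO80B, which overlaps the read-through gene INO80B-WBP1, 86.2% for SRCAP and 59.7% for SMARCE1. It was 22.8% for INO80C and 16.8% for CHD2. The same-strand genes that overlap these members are not listed in the table. CHD4, with 88.8%, was expressed all the same.

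Over all protein-coding entries, 73.9% were expressed where under 10% of the principal transcript was shared (14342 genes, median 5.11 RPKM), and 25.1% where 80% or more was (175 genes, median 0.362). Between these, 51.5% of 309 genes with 40 to 80% shared were expressed. Protein-coding entries that share 40% or more of their exonic bases on the same strand include read-through genes, such as ABHD14A-ACY1, so this background is mixed. Of the 50 protein-coding remodelling genes 4 (8%) had 40% or more shared, against 3.15% of protein-coding entries. Counted on either strand there were 7 (14%), against 5.32%, and 4 of these 7 were expressed, against 54.3% of such entries. The added genes INO80E (65.8%), SMARCB1 (56.1%) and BRD7 (40.8%) averaged 11.83, 11.01 and 11.15 RPKM, in that order. The part of exon sharing in the low values of SRCAP, SMARCE1 and INO80B was not tested.

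**Figure D4:**
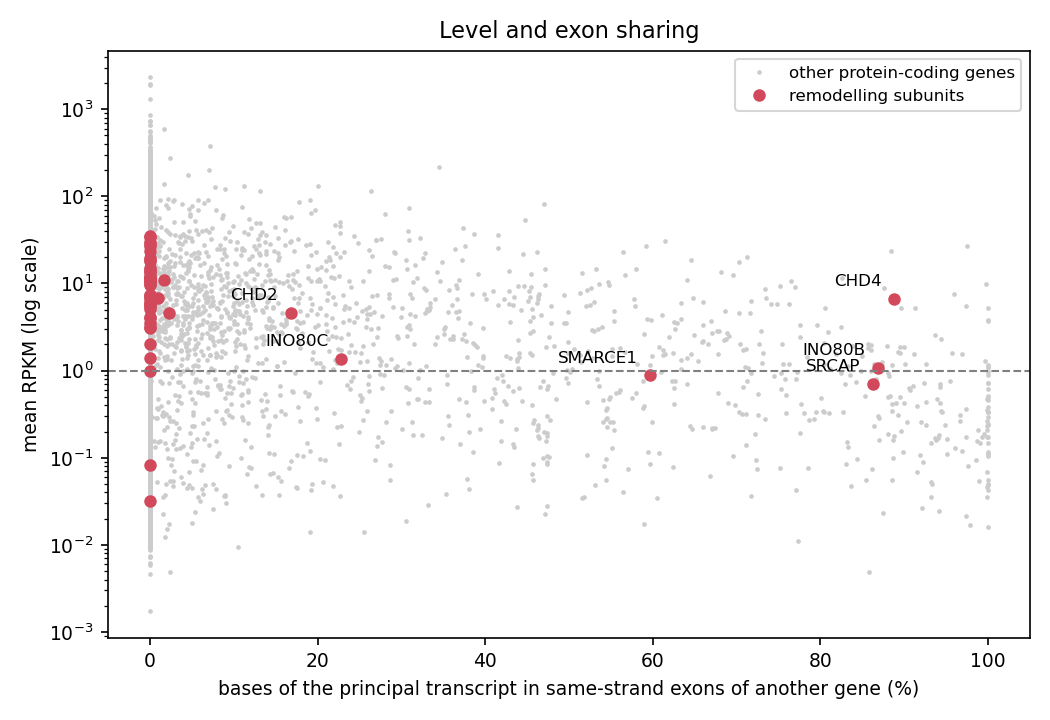
Mean RPKM on a log scale against the percentage of principal transcript bases in same-strand exons of another gene, for protein-coding remodelling genes (red) and other protein-coding genes (grey); the dashed line is 1 RPKM. SRCAP, INO80B and SMARCE1 lie near or below the line at 59.7% to 86.9%, and CHD4 lies above it at 88.8%.

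Partner subunits outside the rule came from lists chosen with earlier results of these data known, so their share expressed is no independent result. Of 54 such genes BAZ2B was left out for having several rows. The other 53 were all expressed, with a median of 10.98 RPKM. The shares expressed were 66.7% over all entries and 72.8% over the protein-coding ones. In BAF the levels ran from ACTB, the actin of the complex and of the cytoskeleton, at 1885 RPKM to BCL11A at 1.29. Among ISWI partners the histone-fold protein gene POLE3 was highest at 50.9 and CECR2 lowest at 2.06, and among NuRD partners the deacetylase gene HDAC1 was highest at 38.0 and MTA3 lowest at 8.75. INO80 partners ran from MCRS1 at 27.5 to UCHL5 at 3.01, SRCAP partners from YEATS4 at 15.0 to ACTR6 at 4.85, and TIP60 partners from MORF4L1 at 30.9 to ING3 at 2.65. CDCA7, the partner of HELLS, had 7.47. All 5 SRCAP partners lay above SRCAP itself, which averaged 0.704, but VPS72, YEATS4 and DMAP1 among them are also TIP60 partners. Of the SRCAP principal transcript, 86.2% lies in same-strand exons of other genes, and the part of this in its level was not tested.

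The libraries were compared gene by gene with an exact binomial test on recovered reads, which compares these libraries and no conditions. At a Benjamini-Hochberg adjusted p under 0.05, 0 of 45 tested remodelling genes differed, against 1.66% of 11942 genes. At an unadjusted p under 0.05 there were 7 (15.6%), against 11.8%. A model with variation beyond counting left 0 remodelling genes at the adjusted level, against 0.0754% of all genes, and 3 at the unadjusted one, against 4.74%. Of the 7 by counting error alone, those higher in replicate 2 were CHD3, CHD1, ARID1A and CHD2 (background 6.22%), and those higher in replicate 1 were ARID4A, HELLS and ARID4B (background 5.63%). CHD2 had the lowest exact p, 0.0045, with an adjusted p of 0.140. Log2 differences ran from -0.21 for HELLS to 0.26 for ARID3B, at most 1.19-fold, with a median size of 0.06 against 0.07 over all genes tested.

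**Figure D5:**
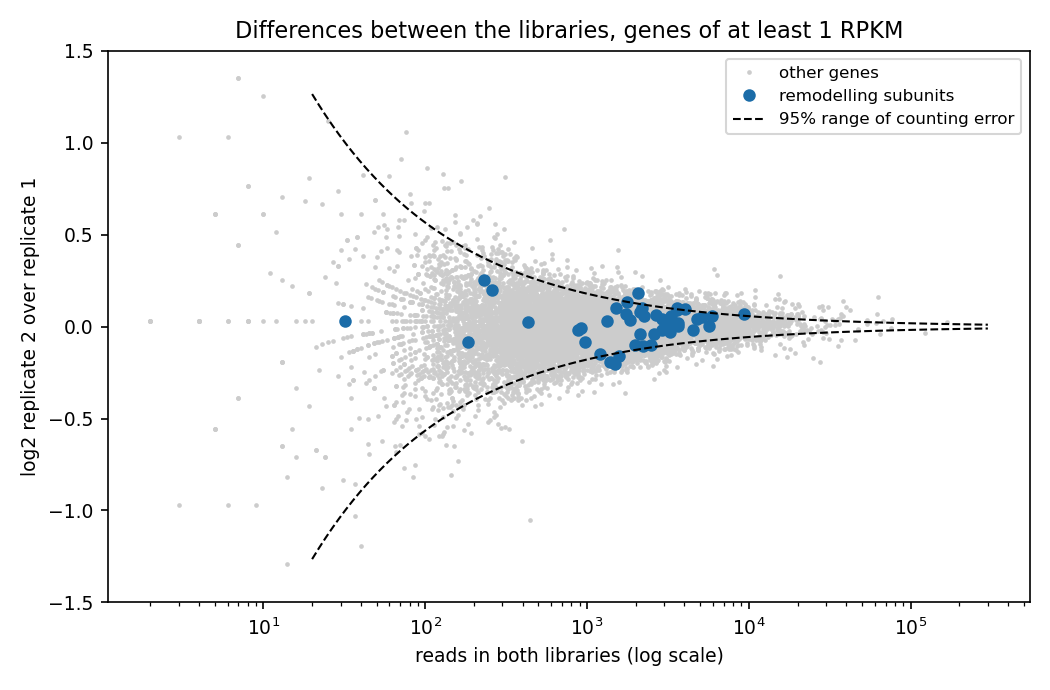
Log2 ratio of replicate 2 over replicate 1 against reads in both libraries (log axis) for genes of at least 1 RPKM, with remodelling genes in blue; dashed lines are the 95% range of counting error, and 11 genes lie outside the axis. The 45 remodelling genes lie between -0.21 and 0.26.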

How the data were processed

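RNA was measured in 2 libraries of 1 group. The deposited values are RPKM, per the file headers, in 1 table. The tools named per the submitters' processing notes are featureCounts, HISAT2 and Trim Galore, and the builds hg38 and GRCh38.p13. Versions, annotation, strand use and filters were not given in the sources used here. In all, 194 rows of 58 symbols with several rows were left out, and symbols with equal values were taken once, leaving 17912 entries. Reads were recovered from RPKM: for 99.99% of genes the columns stood in a whole-number ratio (relative tolerance 2e-13), and the whole factor was set from GENCODE 29 exonic length, which 50 of 51 remodelling genes matched within 10%. The recovery was tested on simulated data with reference lengths close to the true ones. That test does not cover genes further from their GENCODE length, such as DPF2 (8630 bases used, 7715 in GENCODE).

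The libraries were compared by a 2-sided exact binomial test after scaling by the trimmed mean of M values (0.996, replicate 2), with p-values adjusted by Benjamini-Hochberg over 11942 genes. The intervals and the exact test cover counting error only. The model with variation beyond counting adds a coefficient of variation of 2.72%, common to all genes. Principal transcripts are those with the lowest APPRIS principal number, then those with the GENCODE basic tag, then the longest. The members and lists were chosen with earlier results of these data known. The rule for named genes took every paralogue, the ATPases, the 5 highest and lowest members, members within 1.5-fold of 1 RPKM, and the highest and lowest partner of each list. Alternatives changed the level, unit, pseudocount, length, scaling and libraries used. Python 3.11.15, numpy 2.4.6, scipy 1.17.1, pandas 2.3.3 and matplotlib 3.10.9 were used.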

Additional observations from a re-analysis of the deposited data

How the results depend on the processing

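The count of 45 expressed genes ran from 33 at 5 RPKM, where 42.8% of all entries passed, to 49 at the loosest levels. Those levels were 0.5 RPKM, 1 CPM, 1 TPM and 10 reads, which 73.9%, 78.1%, 81.6% and 80.8% of entries passed. The count was 45 to 46 with either library alone. Without genes sharing 10% or more of their exonic bases it was 35 of 38 (92.1%), against 69.6% of such entries. The 53 expressed partners ran from 44 at 5 RPKM, against 42.8% of entries there, to 53. The median of 7.06 RPKM was 6.84 to 7.12 with either library alone, 9.68 over expressed genes, 7.33 without the genes that share 10% or more, and 33.0 in TPM. Per principal transcript it was 15.7, since the length divided by is shorter. The 0 genes that differed between libraries stayed 0 under each scaling, threshold, filter and error model run. The 8 paralogue groups were 9 at 1.5-fold, 4 per principal transcript and 7 by CPM. By CPM, ARID1A over ARID1B (0.16), RUVBL2 over RUVBL1 (0.71) and CHD1 over CHD2 (0.81) dropped out, and SMARCD1 over SMARCD2 (1.07) and ARID5B over ARID5A (1.84) came in (log2). Of 75 settings of paralogue ratios with both libraries, 30 kept their value within the spread, 38 moved and 7 reversed, in 5 pairs. By CPM, SMARCA1 over SMARCA5 was -0.61, CHD9 over CHD8 -0.17 and ARID4A over ARID4B -0.20 (log2). Per principal transcript, SMARCC1 over SMARCC2 was -0.58, CHD9 over CHD8 -0.99, ARID4A over ARID4B -0.19 and ARID5B over ARID5A -0.014, the last with opposite signs in the libraries. These reversals follow from the length divided by. The settings on principal transcripts and shared bases were chosen after seeing the data. No paired analysis was possible because there is only 1 group. Genes with 1 to 23 reads per library, ACTL6B, ARID3C, SMARCA5-AS1 and INO80B, are limited by depth.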
